A study of Mus musculus with 6 samples.

Results

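The 33 genes described here encode enzymes that build and desaturate long-chain fatty acids, activate them to acyl-CoA and oxidise them in mitochondria, together with *Srebf1*, a transcription factor of lipid synthesis. They were taken as listed gene symbols, and all 33 were found among the 35602 genes of the count table and the 34714 genes of the values for the replicate 1 pair. By role, 12 belong to synthesis and desaturation, 4 to acyl-CoA activation and 17 to carnitine entry and mitochondrial beta-oxidation.

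Splenic CD4+ T cells of the mouse were stimulated through CD3 and CD28 and cultured with MAPK13-IN-1, an inhibitor of the kinase encoded by *Mapk13*, or with its solvent DMSO. For replicates 2 and 3 of each group the labels give 17.1 µM inhibitor or 0.1 µl DMSO, added after day 1 of culture, while the study's methods give 72 h of stimulation before RNA sequencing. The labels of the replicate 1 pair name the treatment without a dose or a day of addition. For its RNA-seq of inhibitor and DMSO cells the paper states 17.1 µM inhibitor, present during the 72 h, which differs from addition after day 1. A stranded kit served for the replicate 1 pair, and poly-T beads for the other 4 libraries. Library kit and unit differ between these sets, so levels were compared only within a set.

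Total counts were 26874805 and 28487403 in DMSO replicates 2 and 3 and 33854760 and 32617702 in MAPK13-IN-1 replicates 2 and 3. Expression is given as CPM, the counts of a gene as a fraction of all counts in its library on a common scale. A count of 3, the limit that a count of 0 allows, equals 0.0886 to 0.112 CPM when each library is divided by its total, and this limit covers counting error only. The values of the replicate 1 pair were taken to be FPKM, that is, corrected for the length of each gene and for library size. The files do not name this unit, and it was inferred. Among 2455 genes under 0.1 in both libraries, the most common ratio between the libraries was shared by 0.692%, so no step of 1 read could be read off and the depth of this pair is unknown. The labels do not say whether replicates came from separate cultures or animals, so p-values measure only the spread between these libraries. That spread exceeded sampling noise, with a mean chi-square per gene of 2.94 between the DMSO replicates and 8.82 between the MAPK13-IN-1 replicates.

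Fatty acid synthesis starts when acetyl-CoA carboxylase makes malonyl-CoA, which fatty acid synthase condenses into palmitate, and elongases and desaturases then lengthen the chain and add double bonds. Oxidation runs the other way in mitochondria, where carnitine palmitoyltransferases bring in acyl-CoA and repeated rounds of dehydrogenation, hydration, a further dehydrogenation and thiolysis release acetyl-CoA and pass electrons to the respiratory chain. Activated T cells are known to need new fatty acids for membrane growth, and malonyl-CoA is known to restrain carnitine entry.

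The labelled cell type was checked against marker genes. *Cd4* was present in every library, at 7084 and 7497 counts in DMSO and at 9477 and 9594 counts in the deeper MAPK13-IN-1 libraries. Scaled by TMM these were 274.7 and 275.7 CPM against 267 and 283 CPM, so the groups overlapped, with a log2 fold change of −0.00064 (95% confidence interval −0.12 to 0.12). The other 5 of the 6 CD4 T cell markers tested, *Cd3d*, *Cd3e*, *Cd3g*, *Cd28* and *Lck*, were lower with the inhibitor, with log2 fold changes from −1.56 (*Cd3g*) to −0.53 (*Cd28*). The 6 markers summed to 1188 and 1199 CPM of the library total in DMSO and 785 and 857 CPM with MAPK13-IN-1. In bulk RNA, fewer cells of a type and less RNA per cell cannot be told apart.

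Markers of other cell types moved with the group as well in the count table. Counts of called markers, in these lists and in the CD4 T cell list, stand beside 31.5% of all genes tested higher and 32.3% lower. Of 10 B cell markers 7 were higher and 2 were lower, with a summed level of 1095 and 1065 CPM in DMSO and 1389 and 1398 CPM with the inhibitor, and *Pax5*, the most abundant over the 4 libraries together, had 4585, 4580, 9332 and 9179 counts in DMSO replicates 2 and 3 and MAPK13-IN-1 replicates 2 and 3. Of 8 erythroid markers 7 were tested and 6 were higher, the sum of the list going from 7.52 and 7.20 CPM to 94.4 and 67.1 CPM. *Slc4a1* (0, 3, 12 and 13 counts) passed the filter on low counts only through the MAPK13-IN-1 libraries, so its call gives no support. *Hbb-bs*, at 51, 47, 1048 and 744 counts, was the most abundant over the 4 libraries together. In DMSO replicate 3 *Klf1* had more, with 42, 56, 77 and 75 counts, and it was not called (log2 fold change 0.25, adjusted p = 0.4). Of 5 dendritic cell markers 4 were tested and 4 were higher, with sums of 18.4 and 18.6 CPM against 61.7 and 51.1 CPM. Of 9 macrophage and monocyte markers 6 were tested and 5 were higher. The 9 summed to 11.98 and 10.5 CPM in DMSO and 42.5 and 34.6 CPM with the inhibitor. In these lists *Xcr1* (0, 4, 27 and 16 counts) and *C1qb* (2, 0, 14 and 12 counts) passed the filter only through the MAPK13-IN-1 libraries. Their calls likewise give no support. *Zbtb46* (395, 410, 1624 and 1254 counts) and *Cd68* (270, 253, 1010 and 849 counts) were the most abundant of these lists. Both CD8 T cell markers were lower, from 11.2 and 10.4 CPM in sum to 5.76 and 8.16 CPM, with *Cd8b1* at 225, 228, 168 and 222 counts. The remaining lists were low. Neutrophil markers summed to at most 0.858 CPM in any library, with *S100a8*, *S100a9*, *Csf3r* and *Elane* at or under 3 counts in all 4 libraries and *Mpo*, at 2, 2, 17 and 16 counts, the most abundant in the MAPK13-IN-1 libraries but not in DMSO. NK cell markers summed to at most 2.18 CPM, adipocyte markers to at most 0.650 CPM and hepatocyte markers to at most 1.2997 CPM, with *Eomes* (37, 60, 42 and 51 counts), *Adipoq* (0, 0, 15 and 3 counts) and *Apoa1* (3, 8, 43 and 32 counts) the most abundant over the 4 libraries together. In MAPK13-IN-1 replicate 3 *Cidec* (9 counts) and *Plin1* (6 counts) were above *Adipoq*. *Lep*, *Ttr* and *Cyp2e1* were at or under 3 counts in all 4 libraries. Some lists went the other way in the replicate 1 pair. Summed B cell markers were at 53.1 FPKM in DMSO and 37.6 FPKM with the inhibitor, CD8 T cell markers at 3.49 and 8.39 FPKM, and neutrophil markers at 0.538 and 0.351 FPKM. CD4 T cell markers were at 762 and 741 FPKM, macrophage and monocyte markers at 2.98 and 9.33 FPKM, dendritic cell markers at 3.36 and 14.6 FPKM and erythroid markers at 0.931 and 1.94 FPKM. NK cell markers were at 0.5997 and 4.35 FPKM, hepatocyte markers at 0.0475 and 0.259 FPKM and adipocyte markers at 0.00839 and 0.0223 FPKM. The study's methods isolated the splenic cells with a kit for mouse CD4 T cells, a step meant to remove other cell types. The part of these other cell types in the changes of the fatty acid genes was not tested.

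All 33 genes passed the filter on low counts. Expression of 21 of them differed between MAPK13-IN-1 and DMSO when p-values of the quasi-likelihood test in edgeR, adjusted by Benjamini-Hochberg over 16269 genes, were called under 0.05, a share of 63.6% beside 63.8% of all genes tested, so the number called was close to the background. Every adjusted p below comes from this test unless DESeq2 is named. In direction, 13 were higher and 8 were lower, beside 31.5% of all genes higher and 32.3% lower. With a change over 2-fold as well, 3 were higher and 1 was lower, where 13% and 10.4% of all genes were. The 2113 genes behind the 13% fell to 1264 with 10 or more counts in every library, where 3 of the 33 were higher. That filter leaves fewer than 16269 genes to test, a number not given here. The 1264 therefore cannot be read against the 13%, nor the 3 against a share of all genes. The groups did not overlap in CPM for 27 of the 33, beside 83% of all genes tested. The median log2 fold change was 0.09 over the 33 genes and 0.01 over all genes tested. With 1 library left out these medians were 0.036 to 0.082 and 0.0029 to 0.035.

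Counts are given by role beside 31.5% of all genes higher and 32.3% lower, and the difference between roles was not tested. Of the 12 synthesis and desaturation genes 9 were higher and 1 was lower, with a median log2 fold change of 0.55. Of the 17 oxidation genes 4 were higher and 7 were lower, with a median of −0.04 that turned to 0.04 with upper-quartile scaling and to 0.08 with library totals. When libraries were scaled by their totals alone, the median of all genes moved by 0.13 on the log2 scale. Of the 16269 genes tested, 6176 were then higher and 4302 lower. Beside this background, the oxidation genes split into 7 higher and 7 lower and the synthesis and desaturation genes into 9 higher and 1 lower. The 9 higher became 6 without DMSO replicate 2, 7 without DMSO replicate 3, 8 without MAPK13-IN-1 replicate 2 and 7 with DESeq2. All other changes below are relative to TMM scaling, which sets the bulk of genes near 0.

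**Figure D1:**
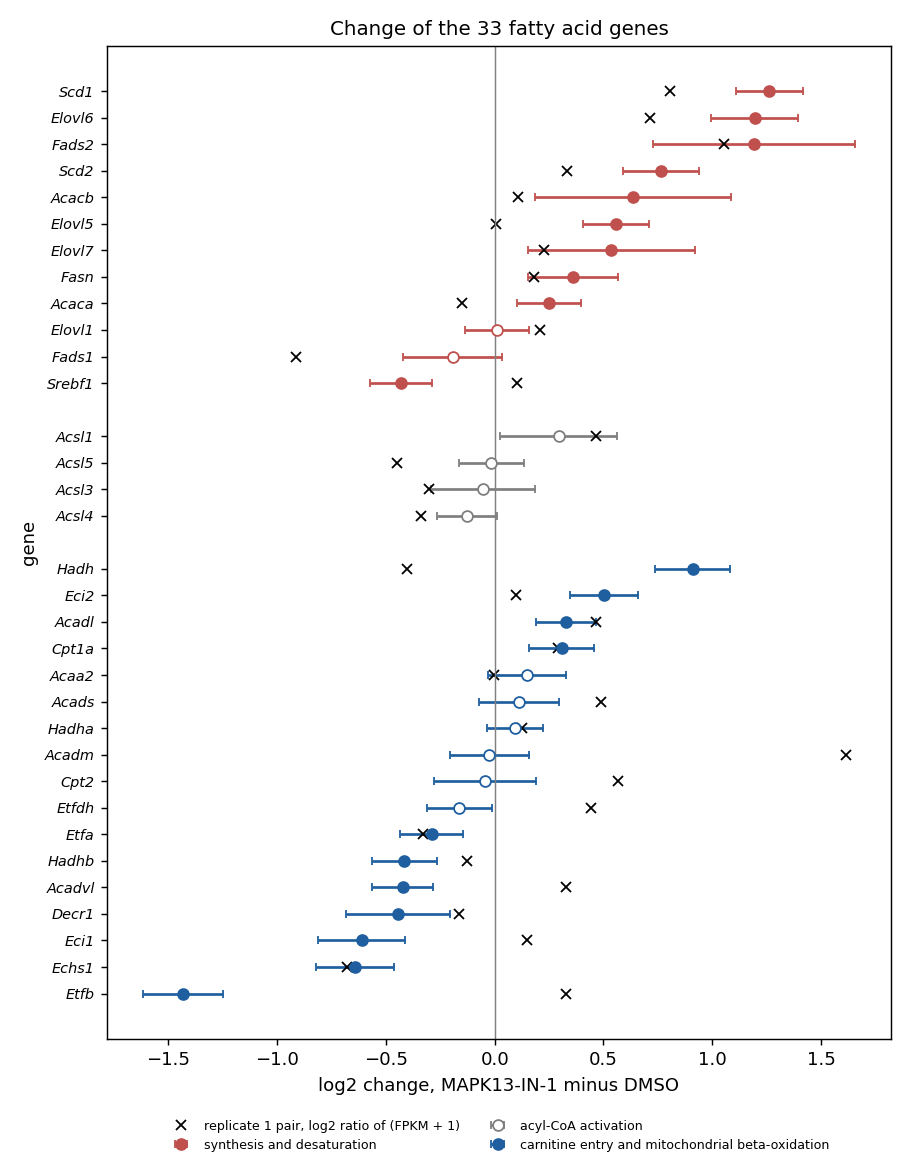
Log2 change of each gene, MAPK13-IN-1 minus DMSO, on the horizontal axis, with genes grouped by role. Circles with bars are the fitted log2 fold change and its 95% confidence interval from 2 libraries against 2, filled where the adjusted p-value was under 0.05, and crosses are the log2 ratios of the replicate 1 pair on the scale of log2(FPKM + 1); *Scd1* (1.26) and *Etfb* (−1.43) lie farthest out among the fitted values.

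Genes of the first steps of synthesis were higher with the inhibitor by modest amounts in the count table. *Fasn*, fatty acid synthase, was at 293 and 309 CPM in the DMSO libraries and 340.2 and 433 CPM in the MAPK13-IN-1 libraries (CPM here and below are scaled by TMM). The inhibitor libraries were both above the DMSO libraries, and they differed from each other by more than the DMSO libraries did. This gave a log2 fold change of 0.36 with standard error 0.0929 and adjusted p = 0.00614, and it was 0.17 without MAPK13-IN-1 replicate 3. *Acaca*, the acetyl-CoA carboxylase of the cytosol, was at 64.2 and 65.5 CPM in DMSO and 75.4 and 78.9 CPM with the inhibitor. Its log2 fold change of 0.25 (standard error 0.0659) passed the test (adjusted p = 0.00689). *Acacb*, the carboxylase bound to mitochondria, had 58 and 68 counts in DMSO and 127 and 129 counts with the inhibitor, and it also rose, by a log2 fold change of 0.63 (standard error 0.203). Per kilobase of exon its DMSO level, 0.270 CPM, was below the 6.82 CPM of *Acaca* and the 29.9 CPM of *Fasn*. *Acaca* went the other way in the replicate 1 pair, from 5.44 FPKM in DMSO to 4.81 FPKM with the inhibitor. *Fasn* went from 25.6 to 29.1 FPKM there, and *Acacb* was low at 0.0667 and 0.150 FPKM. The calls of *Acaca* and *Acacb* were lost when either DMSO library was left out (adjusted p = 0.104 and 0.122 without DMSO replicate 2, and 0.0633 and 0.0502 without DMSO replicate 3, and for *Acacb* also 0.0973 with DESeq2, within ranges of 4.01e-05 to 0.104 and 0.00686 to 0.122 over all alternatives).

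*Scd1* and *Scd2* encode stearoyl-CoA desaturases, which place the first double bond in saturated acyl chains, and both rose. *Scd1* was at 72.5 and 66.2 CPM in the DMSO libraries and 161 and 172 CPM in the MAPK13-IN-1 libraries. *Scd2* was at 1138 and 1039 CPM in DMSO and 1679.6 and 2020.3 CPM with the inhibitor. In both genes each inhibitor library was above each DMSO library. Fitted log2 changes were 1.26 (standard error 0.0689, adjusted p = 2.1e-07) for *Scd1* and 0.77 (standard error 0.0789, adjusted p = 1.38e-05) for *Scd2*. Per kilobase of exon, the DMSO level of *Scd2* was 199.5 CPM and that of *Scd1* 14.3 CPM, so *Scd2* was the more abundant. The pair lies 87.6 kb apart on chromosome 19, and how the authors' counting shared reads between these similar genes is not given in the sources used here. In the replicate 1 pair *Scd1* went from 1.51 to 3.39 FPKM and *Scd2* from 105 to 133 FPKM. The family did not move as a whole. *Scd3* and *Scd4*, outside the 33 genes and named here after their values were seen, went in opposite directions. *Scd3* was at 4.34 and 4.27 CPM in DMSO and 1.41 and 1.92 CPM with the inhibitor, a log2 fold change of −1.37 (adjusted p = 0.000364). *Scd4* was at 1.20 and 0.883 CPM against 11.1 and 8.71 CPM, a log2 fold change of 3.25 (adjusted p = 9.18e-07).

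The front-end desaturases of polyunsaturated fatty acids did not move alike. *Fads2*, which acts first on linoleic and linolenic acid, was at 10.1 and 7.94 CPM in DMSO and 15.8 and 25.5 CPM with MAPK13-IN-1. Both inhibitor libraries were above both DMSO libraries, and were far apart from each other. The fitted log2 difference was 1.19, with standard error 0.209 and adjusted p = 0.000569, and it was 0.80 without MAPK13-IN-1 replicate 3. *Fads1*, which acts later in the same route, was at 22.3 and 21.4 CPM in DMSO and 18.0 and 20.2 CPM with the inhibitor. The log2 fold change of *Fads1* was −0.19, with a 95% confidence interval of −0.42 to 0.03, and did not pass the test (adjusted p = 0.121), although it did without MAPK13-IN-1 replicate 3 (adjusted p = 0.016, within a range of 0.016 to 0.575). The 2 genes lie 81.1 kb apart on chromosome 19. The difference between their changes was not tested.

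Among the elongases, *Elovl6*, which extends palmitate to stearate, rose most. It was at 18.1 and 16.95 CPM in DMSO and 39.2 and 41.1 CPM with MAPK13-IN-1, so the groups were well apart. This gave a log2 fold change of 1.20 with standard error 0.0898 and adjusted p = 1.58e-06. *Elovl5*, an elongase of polyunsaturated chains, was at 61.3 and 57.3 CPM against 89.1 and 85.3 CPM, a log2 fold change of 0.56 (adjusted p = 4.92e-05). *Elovl7* was low, at 4.11 and 4.96 CPM against 7.13 and 6.05 CPM, with a log2 fold change of 0.54 (adjusted p = 0.0196). Its call was lost with DESeq2 (adjusted p = 0.0653), without DMSO replicate 2 (adjusted p = 0.159) and without MAPK13-IN-1 replicate 2 (adjusted p = 0.054), with a range of 0.000855 to 0.159 over the alternatives. *Elovl1*, which makes very long saturated chains, was the elongase with the highest level per kilobase, 33.3 CPM in DMSO and 33.6 CPM with the inhibitor. Its libraries overlapped, at 63.9, 65.2, 65.8 and 64.5 CPM, with a log2 fold change of 0.01 (95% confidence interval −0.13 to 0.16).

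*Srebf1*, which encodes the transcription factor SREBP-1 that drives genes of fatty acid synthesis, went against most of the enzymes. It was at 209.9 and 216 CPM in the DMSO libraries and 149.6 and 166 CPM in the MAPK13-IN-1 libraries. Both inhibitor libraries were lower. This gave a log2 fold change of −0.43 with standard error 0.0641 and adjusted p = 0.000182. In the replicate 1 pair it was at 28.3 FPKM in DMSO and 30.5 FPKM with the inhibitor. Its exons share 109 bases with those of *Rai1* on the other strand.

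**Figure D2:**
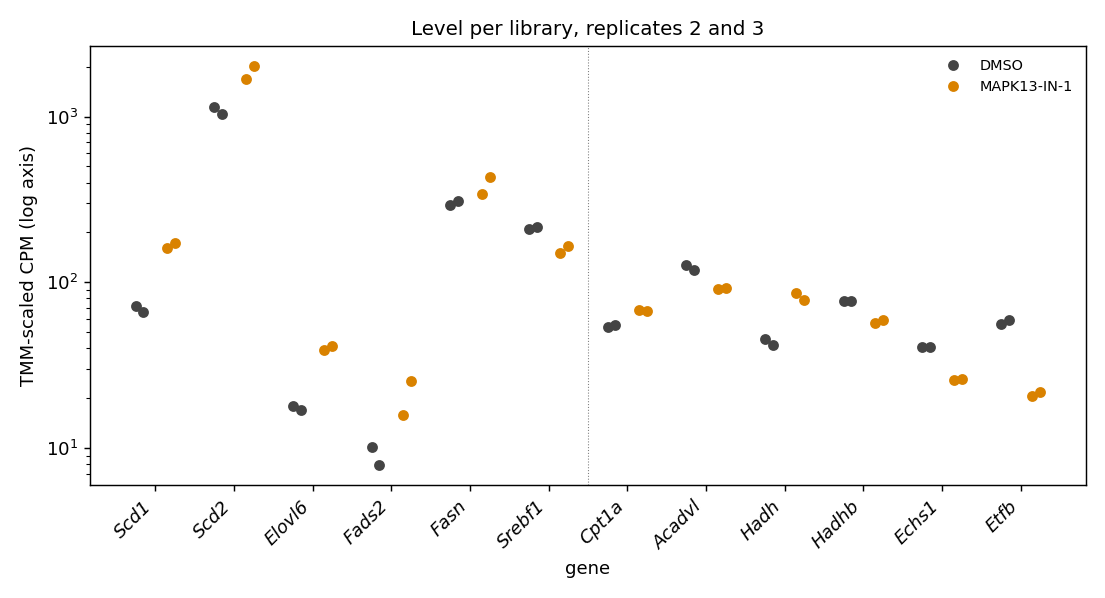
TMM-scaled CPM on a log axis for 12 of the genes, with 1 point for each of DMSO replicates 2 and 3 (grey) and MAPK13-IN-1 replicates 2 and 3 (orange). Synthesis genes are left of the dotted line and oxidation genes right of it; *Scd1*, *Scd2*, *Elovl6*, *Fads2*, *Fasn*, *Cpt1a* and *Hadh* are higher with the inhibitor and the others lower.

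Long-chain acyl-CoA synthetases join fatty acids to coenzyme A, which both storage and oxidation require. None of the 4 genes passed the adjusted threshold in edgeR's quasi-likelihood test, and 1, *Acsl1*, had an unadjusted p-value under 0.05, while DESeq2 called 0. *Acsl5*, the most abundant in FPKM in the DMSO library of replicate 1 (68.9 FPKM), was at 108 and 111 CPM in DMSO and 114 and 103 CPM with MAPK13-IN-1, and the groups overlapped. *Acsl4*, known for its preference for arachidonic acid, was at 119.6 and 112 CPM against 105 and 107 CPM, with a log2 fold change of −0.13 (95% confidence interval −0.26 to 0.01), and its adjusted p was 0.0989. *Acsl1* had a log2 fold change of 0.29 (95% confidence interval 0.03 to 0.56, adjusted p = 0.0538). It passed under several settings, with adjusted p from 0.0105 with library totals to 0.419 without DMSO replicate 2. Without MAPK13-IN-1 replicate 3, *Acsl1* and *Acsl4* were called, with adjusted p of 0.0219 and 0.0181, the range for *Acsl4* being 0.0181 to 0.988. *Acsl3* had a log2 fold change of −0.05, and the signs of *Acsl3* and *Acsl5* flipped with upper-quartile scaling and with library totals.

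Entry into mitochondria was represented by *Cpt1a*, the outer-membrane carnitine palmitoyltransferase on which malonyl-CoA acts, and *Cpt2*, its inner-membrane partner. *Cpt1a* was at 53.5 and 55.6 CPM in DMSO and 67.9 and 67.2 CPM with MAPK13-IN-1. The groups did not overlap, and its log2 change came to 0.31 with standard error 0.0676 and adjusted p = 0.00242. Without DMSO replicate 2 its adjusted p was 0.0576, within a range of 1.74e-05 to 0.0576. *Cpt2* was at 15.4 and 16.4 CPM against 15.2 and 15.7 CPM, with overlapping groups.

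The acyl-CoA dehydrogenases, which take the first electrons from chains of decreasing length, split. *Acadvl*, for very long chains, was at 127 and 118 CPM in DMSO and 90.7 and 92.3 CPM with MAPK13-IN-1, with a log2 fold change of −0.42 with standard error 0.0633 and adjusted p = 0.000196. *Acadl*, for long chains, was at 75.4 and 76.9 CPM against 96.6 and 94.8 CPM, a log2 fold change of 0.33 with standard error 0.0618 and adjusted p = 0.000888. Groups were apart in both genes, in opposite directions. *Acadm*, for medium chains, had overlapping groups (41.4, 38.0, 39.8 and 38.3 CPM), and so had *Acads*, for short chains (40.3, 44.2, 44.0 and 47.5 CPM). The replicate 1 pair had *Acadm* at 11.7 FPKM in DMSO and 37.9 FPKM with the inhibitor. In that pair *Acadvl* went the other way from the fit, from 41.95 to 53.0 FPKM, while *Acadl* went from 33.6 to 46.9 FPKM. *Acads* was called higher when libraries were scaled by totals (adjusted p = 0.0246) and without MAPK13-IN-1 replicate 2 (adjusted p = 0.0492), within a range of 0.0246 to 0.839. The exons of *Acadvl* share 976 bases with *Dvl2* on the other strand, and whether the counts of replicates 2 and 3 used strand is not given in the sources used here.

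The later steps of the cycle also split. *Hadha* and *Hadhb* encode the subunits of the trifunctional protein, which carries out hydration, the next dehydrogenation and thiolysis of long chains. *Hadha* was at 123 and 120.2 CPM in DMSO and 131 and 129 CPM with MAPK13-IN-1, with a log2 fold change of 0.09 (95% confidence interval −0.03 to 0.22). *Hadhb* was at 77.4 and 77.3 CPM against 56.5 and 59.6 CPM, a log2 fold change of −0.41 with standard error 0.0668 and adjusted p = 0.000322. The subunit genes thus differed in whether they were called, and the difference between them was not tested. *Hadha* passed as higher with upper-quartile scaling (adjusted p = 0.0225) and with library totals (adjusted p = 0.00727), within a range of 0.00727 to 0.63.

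*Hadh*, the hydroxyacyl-CoA dehydrogenase of medium and short chains, had the largest rise of the oxidation genes. It was at 45.3 and 42.1 CPM in the DMSO libraries and 86.2 and 77.9 CPM in the MAPK13-IN-1 libraries. Both inhibitor libraries were above both DMSO libraries. This gave a log2 fold change of 0.91 with standard error 0.0779 and adjusted p = 3.81e-06, whereas in the replicate 1 pair *Hadh* was at 20.9 FPKM in DMSO and 15.5 FPKM with the inhibitor. *Echs1*, the short-chain enoyl-CoA hydratase, was at 40.6 and 40.5 CPM against 25.8 and 26.1 CPM, a log2 fold change of −0.64 with standard error 0.0808 and adjusted p = 5.6e-05. It was lower in the replicate 1 pair too, at 28.6 and 17.5 FPKM. *Acaa2*, a mitochondrial thiolase, had a log2 fold change of 0.15 and was not called, and it passed as higher with upper-quartile scaling (adjusted p = 0.0271), with library totals (adjusted p = 0.0122) and without MAPK13-IN-1 replicate 2 (adjusted p = 0.00847, within a range of 0.00847 to 0.612).

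Unsaturated chains also pass through the cycle, and isomerases and a reductase act when a double bond is reached. The isomerases *Eci1* and *Eci2* moved in opposite directions in the count table. *Eci1* was at 28.2 and 28.5 CPM in DMSO and 18.6 and 18.5 CPM with MAPK13-IN-1, with a log2 fold change of −0.61 with standard error 0.0908 and adjusted p = 0.000182. *Eci2* was at 50.2 and 53.3 CPM against 74.98 and 71.7 CPM, a log2 fold change of 0.50 with standard error 0.0703 and adjusted p = 0.000121. Neither gene's groups overlapped. Both isomerases were higher with the inhibitor in the replicate 1 pair, *Eci1* going from 18.5 to 20.7 FPKM and *Eci2* from 31.2 to 33.5 FPKM. *Decr1*, the dienoyl-CoA reductase, had a log2 fold change of −0.44 (adjusted p = 0.0045), and without DMSO replicate 3 its adjusted p was 0.0525, within a range of 0.000349 to 0.0525.

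Electrons from the acyl-CoA dehydrogenases pass through the electron transfer flavoprotein, of which *Etfa* and *Etfb* encode the subunits, to its dehydrogenase, encoded by *Etfdh*. *Etfb* was at 55.8 and 59.5 CPM in the DMSO libraries and 20.7 and 22.0 CPM in the MAPK13-IN-1 libraries, with 1439, 1617, 736 and 744 counts behind these values. The groups were far apart. This gave a log2 fold change of −1.43 with standard error 0.0827 and adjusted p = 2.93e-07. In the replicate 1 pair, by contrast, *Etfb* was at 57.8 FPKM in DMSO and 72.8 FPKM with the inhibitor. Of its 893 exonic bases, 617 are shared with *Gm45233*, annotated as a protein-coding gene on the same strand. The count table does not list *Gm45233* under that name, and how reads from the shared bases were assigned is not given in the sources used here. *Etfa* was at 73.6 and 73.4 CPM against 59.1 and 61.1 CPM, a log2 fold change of −0.29 with standard error 0.0657 and adjusted p = 0.00296. *Etfdh* was at 59.8 and 59.1 CPM against 52.7 and 53.5 CPM, a log2 fold change of −0.16 that did not pass (adjusted p = 0.0589). Without MAPK13-IN-1 replicate 3 *Etfdh* passed as lower (adjusted p = 0.0195, within a range of 0.0195 to 0.664).

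Summed over each role, synthesis and desaturation genes came to 1960 and 1871 CPM in the DMSO libraries and 2644 and 3116 CPM in the MAPK13-IN-1 libraries. The oxidation genes came to 971 and 965 CPM in DMSO and 941 and 940.2 CPM with the inhibitor, and the activation genes to 256 and 250.3 CPM against 249 and 239 CPM. Scaled by library totals, the order of the groups turned for oxidation, at 932 and 921 CPM in DMSO and 987 and 977 CPM with the inhibitor, and for activation, at 245 and 239 CPM against 261 and 248 CPM. The ratio of synthesis to oxidation, which does not depend on how libraries are scaled, was 2.02 and 1.94 in DMSO and 2.81 and 3.31 with the inhibitor, so both inhibitor libraries were above both DMSO libraries. *Scd2* made up much of the sum, and without it the ratios were 0.846 and 0.863 in DMSO and 1.02 and 1.17 with MAPK13-IN-1. The mean log2 CPM of synthesis minus that of oxidation was −0.18 and −0.21 in DMSO and 0.37 and 0.50 with the inhibitor. These values were not tested. In the replicate 1 pair the ratio of summed FPKM was 0.486 in DMSO and 0.506 with the inhibitor, and 0.267 and 0.260 without *Scd2*. FPKM, the inferred unit, is corrected for gene length and CPM is not, so the size of this ratio cannot be compared between the sets.

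**Figure D3:**
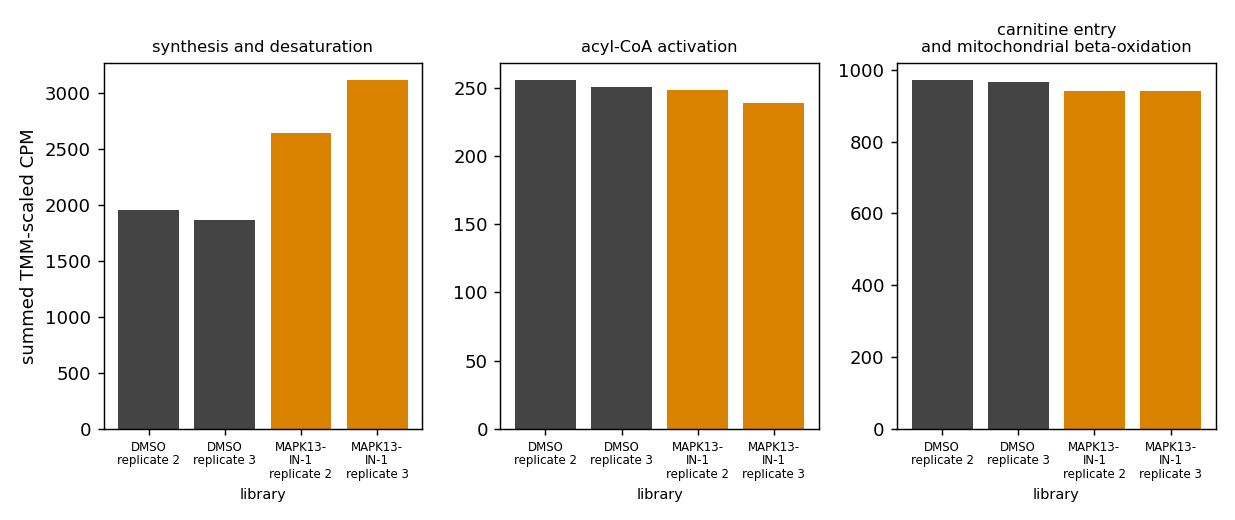
Summed TMM-scaled CPM of the genes of each role in each library of the count table, on axes that start at 0 and differ in scale. Synthesis and desaturation genes sum to 1871 to 1960 CPM in DMSO (grey) and 2644 to 3116 CPM with MAPK13-IN-1 (orange), while oxidation genes sum to 940.2 to 971 CPM in all 4 libraries, lower with the inhibitor here but higher when scaled by library totals, as are the activation genes.

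Each gene was also read in the replicate 1 pair, with 1 library per group and no replicate check. On the scale of log2(FPKM + 1), which understates the change of low genes, 22 of the 33 had a log2 ratio above 0, with a median of 0.15, beside 60.2% of 15825 genes tested and a median of 0.07. The synthesis and desaturation genes had 10 of 12 above 0 and a median of 0.19, the activation genes 1 of 4 and −0.32, and the oxidation genes 11 of 17 and 0.15. Among those 10, *Elovl5* was nearly unchanged, at 24.03 FPKM in DMSO and 24.13 FPKM with the inhibitor. *Acacb* (0.0667 and 0.150 FPKM) and *Elovl7* (0.615 and 0.889 FPKM) were under 1 FPKM in both libraries. Of the 21 genes called in the count table, 15 had the same sign in this pair, 11 of the 13 higher and 4 of the 8 lower, beside 6714 of the 10193 called genes it lists (65.9%). The 11 include *Elovl5*, *Acacb* and *Elovl7*. The 6 with the other sign were *Acaca*, *Srebf1*, *Acadvl*, *Hadh*, *Eci1* and *Etfb*.

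Other genes of fatty acid metabolism were read from 12 lists with 121 genes in the count table, of which 108 were tested. Of these, 36 were higher and 45 were lower, a share of 75% called beside 63.8% of all genes tested (31.5% higher and 32.3% lower), with a median log2 fold change of −0.13 beside 0.01. The counts of single lists below stand against the same background, in which most genes of any kind were called. The elongation and desaturation genes outside the 12 described had 7 of 10 tested higher and 2 lower, with *Hacd2* (0.75), *Hacd3* (0.63) and *Degs1* (0.60) named for the size of their log2 fold change. The genes of acetyl-CoA and NADPH supply had 3 of 6 higher and 2 lower. *Slc25a1*, the citrate carrier, had a log2 fold change of −1.10 and went from 55.1 to 25.8 CPM in the group means, but from 16.7 to 33.6 FPKM in the replicate 1 pair, whereas *Idh1* (0.60) and *Acss1* (0.46) were higher. Of the SREBP processing and lipogenic regulators 2 of 12 were higher and 7 lower, with *Mid1ip1*, which promotes the assembly of acetyl-CoA carboxylase, at −0.91, *Mlx* at −0.68 and *Mlxip* at 0.72 on the log2 scale.

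The lists next to oxidation held genes called in both directions, except the carnitine list. Other genes of mitochondrial beta-oxidation had 2 of 8 higher and 5 lower, with *Acad11* at −1.06, *Acad9* at 0.73 and *Acad10* at −0.67. Of 11 peroxisomal genes 4 were higher and 4 lower, with *Hsd17b4* at −0.86, *Abcd3* at −0.69 and *Acaa1a* at 0.63, and of 6 other carnitine genes 2 were lower, *Crat* (−0.33) and *Slc25a20* (−0.22). Among the PPAR and PGC-1 regulators 2 of 7 were higher and 3 lower, with *Rxrb* at −1.15, *Ppargc1b* at 0.73 and *Esrra* at −0.35. The genes of AMPK, the kinase that phosphorylates acetyl-CoA carboxylase, and of malonyl-CoA control had 5 of 8 higher and 1 lower, led by the subunits *Prkab2* (0.99), *Prkaa1* (0.88) and *Prkab1* (0.69).

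The remaining lists cover how fatty acids are handled around both routes. Mitochondrial fatty acid synthesis had 1 of 6 higher and 3 lower, with *Mecr* at −0.79, *Mcat* at −0.66 and *Acsf3* at −0.63. Uptake and binding had 3 of 7 higher and 3 lower, with *Vldlr* at −1.32, *Fabp5* at −1.04 and *Slc27a3* at 1.01, and the other acyl-CoA synthetases, binding proteins and thioesterases had 4 of 10 higher and 3 lower, with *Dbi* at 0.80, *Acot7* at 0.80 and *Acot2* at −0.65. Of 17 genes of triglyceride storage and lipolysis 3 were higher and 10 lower, with a median of −0.52 and with *Mgll* at −1.99, *Dgat2* at −1.78 and *Agpat3* at −1.39 on the log2 scale. This list went the other way in the replicate 1 pair, with 13 of 17 genes above 0, a median log2 ratio of 0.31 and 3 of the 10 lower genes below 0, and *Mgll* was at 5.70 and 6.66 FPKM. Over the 12 lists, 79 genes were above 0 and 39 below 0 in that pair, with a median of 0.15, and 49 of the 81 called genes had the same sign. Of the genes named from these lists, the sign differed in the pair for *Slc25a1*, *Acss1*, *Mcat*, *Hacd3*, *Ppargc1b*, *Esrra*, *Fabp5*, *Crat*, *Slc25a20*, *Acad11*, *Hsd17b4*, *Abcd3* and *Mgll*.

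Some features of the 33 genes were compared with their changes as a description. Across the 33 genes, which share the same libraries and are not independent replicates, the Spearman correlation of log2 fold change with exonic length was 0.44. Over 14449 genes tested with an annotated length it was 0.10. Among the shortest genes, up to 1903 exonic bases, 8 of the 33 genes had a median log2 fold change of −0.09 and all genes one of −0.13, and among the longest, from 4736 bases, 7 of the 33 had a median of 0.63 and all genes one of 0.10. Exons of 9 of the 33 genes share bases with another gene, 6 with a gene on the other strand and 3 with a gene on the same strand (*Scd2*, *Acsl3* and *Etfb*).

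Promoter sequence, 250 bases before to 50 bases after a gene's start, was matched in RefSeq (build GRCm38.p6) for 28 of the 33 genes, all but *Scd1*, *Scd2*, *Fads1*, *Acaa2* and *Decr1*. Letters of known factors were searched on both strands in these and in all 32851 promoters. TCACNCCAC, the letters of a sterol regulatory element, were in 1 of the 28 genes, *Acsl1*, and in 1.24% of all promoters. The E-box CACGTG was in 1, *Elovl5*, and in 7.15% of all promoters. The CCAAT box was in 14, of which 5 were synthesis and desaturation, 3 activation and 6 oxidation genes, and in 37.4% of all promoters. TCAAGGTCA, bound by estrogen-related receptors, and a direct repeat of AGGTCA with 1 base between, bound by PPAR, were in 0 of the 28 and in 0.423% and 0.0396% of all promoters. A match describes letters only, neither a site nor a cause, and no match says only that these letters are not in the window.

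Sequences before the start are shown for the genes changed over 2-fold with an entry long enough outside the annotated transcript, *Elovl6* and *Etfb*, and for the stretch between *Hadha* and *Hadhb*, which are transcribed away from each other. The annotated ends of these genes in GENCODE lie 85 bases apart, whereas their RefSeq starts, 30154980 and 30155253, have 272 bases between them and their promoter entries overlap by 228 bases. The 85 bases shown lie before both starts in both sources. Capitals mark CCAAT, read as ATTGG on the strand shown, and no capitals mean that none of the searched letters was found. The strand is that of the gene, and the plus strand for the shared stretch.
*Elovl6*, chr3:129532136-129532354, plus strand: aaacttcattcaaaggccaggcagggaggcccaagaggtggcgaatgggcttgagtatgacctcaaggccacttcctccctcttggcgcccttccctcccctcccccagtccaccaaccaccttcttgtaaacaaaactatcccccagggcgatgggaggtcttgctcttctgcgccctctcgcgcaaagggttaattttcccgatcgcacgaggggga
*Etfb*, chr7:43443822-43444071, plus strand: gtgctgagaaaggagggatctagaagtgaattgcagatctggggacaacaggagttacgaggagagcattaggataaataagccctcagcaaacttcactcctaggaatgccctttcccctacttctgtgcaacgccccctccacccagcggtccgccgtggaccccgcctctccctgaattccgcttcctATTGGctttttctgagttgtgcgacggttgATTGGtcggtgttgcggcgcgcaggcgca
*Hadha* and *Hadhb*, chr5:30155163-30155247, plus strand: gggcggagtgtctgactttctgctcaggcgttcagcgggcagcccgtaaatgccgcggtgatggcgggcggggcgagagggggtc
*Etfb* holds 2 CCAAT boxes in its 250 bases, whose GC content is 55.6%. *Elovl6* holds none of the searched letters in 219 bases with 58% GC. The 85 bases shared by *Hadha* and *Hadhb* have 69.4% GC.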

How the data were processed

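RNA-seq of 6 libraries was used, 3 per group. For replicates 2 and 3 the authors deposited raw counts per gene, and the submitters' processing notes name fastp 0.21.0, HISAT2 2.1.0, StringTie 2.1.5 and DESeq2 1.30.1 with mm10. For the replicate 1 pair the authors deposited values without a named unit, inferred to be FPKM, and their notes name FastQC and HISAT2. The annotation and the use of strand in counting are not given in the sources used here. Because this pair does not hold counts, it was left out of the fit, as the design foresaw, and is given as log2 ratios with a pseudocount of 1.

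Counts were fitted with edgeR 4.0.16 in R 4.3.3 (filterByExpr with a minimum count of 10 and a minimum total of 15, TMM, quasi-likelihood test of 2 libraries against 2 without covariates, Benjamini-Hochberg adjustment), after the code had been tested on simulated data. Standard errors were derived from the fold change and its F statistic, and 95% intervals from the t quantile at the test's degrees of freedom. Exonic lengths came from GENCODE annotation, and promoters from RefSeq. Alternatives were RLE and upper-quartile scaling, library totals, 10 or more counts in every library, no count filter, DESeq2 1.42.0, the replicate number as a block, each library left out, and for FPKM a pseudocount of 0.1 or a minimum of 1. For the other pathway genes, these alternatives were chosen after seeing the data.

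All 33 genes are named. From each other pathway list at most 3 called genes were named by rule. They had the largest absolute log2 fold change among genes with at least 10 CPM in the mean of either group. *Scd3* and *Scd4*, both under 10 CPM, were named outside this rule. Members and lists were chosen with earlier results of these data known. Values of some single marker genes are not reported here. *Trac* and *Hsd17b8* were not found under these symbols in the count table. Figures were drawn with matplotlib 3.10.9 in Python 3.11.15.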

Additional observations from a re-analysis of the deposited data

How the results depend on the processing

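Of 363 comparisons of a fatty acid gene with an alternative, 321 kept direction and side of the threshold, and 16 of the 21 called genes were called in all 11 settings. No called gene changed sign in these settings. With 1 library left out, the lone library of a group is assumed to vary like those of the other group. For the changes below, the cause was not tested.

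The median log2 fold change of all genes was 0.025 with RLE, 0.092 with upper-quartile scaling, 0.14 with library totals, 0.16 without a filter, −0.0017 with 10 or more counts in every library, 0.026 with DESeq2, and 0.0029 to 0.035 with 1 library left out. With 10 or more counts in every library, which leaves fewer genes to test, 1264 genes were higher by over 2-fold. The median of the 33 genes was 0.17 with upper-quartile scaling, 0.22 with library totals, 0.14 with 10 or more counts in every library, and 0.036 to 0.082 with 1 library left out. For synthesis and desaturation these were 0.63, 0.67, 0.59 and 0.47 to 0.59, with 6 to 9 genes higher and 1 to 2 lower when 1 library was left out, and 7 higher with DESeq2. For oxidation they were 0.036, 0.081, 0.00061 and −0.10 to −0.051. Library totals gave 7 oxidation genes higher, 1 of them over 2-fold, beside 6176 and 2523 of all genes tested. For acyl-CoA activation the median was 0.047 with upper-quartile scaling and 0.091 with library totals. In that role 1 gene, *Acsl1*, was called higher with RLE, upper-quartile scaling, library totals, 10 or more counts in every library and the replicate block, while 0 to 2 genes were called, 0 to 1 higher and 0 to 1 lower, with 1 library left out. For the other pathway genes the median was −0.053 with upper-quartile scaling, −0.0087 with library totals and −0.17 to −0.046 with 1 library left out, and library totals gave 9 genes higher by over 2-fold.

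Signs turned for some uncalled genes. With upper-quartile scaling and library totals, the log2 fold change was 0.029 and 0.073 for *Acsl3*, 0.064 and 0.11 for *Acsl5*, 0.036 and 0.081 for *Cpt2*, and 0.057 and 0.10 for *Acadm*. With 10 or more counts in every library it was 0.029 for *Acsl5*, 0.00061 for *Cpt2* and 0.021 for *Acadm*. With 1 library left out it ranged from −0.015 to 0.020 for *Elovl1*, −0.13 to 0.011 for *Acsl3*, −0.092 to 0.048 for *Acsl5* and −0.094 to 0.025 for *Acadm*. In the replicate 1 pair a pseudocount of 0.1 gave medians of 0.19 for the 33 genes, 0.28 for synthesis and desaturation and 0.16 for oxidation.

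Replicates sharing a number were also fitted as a block. This fit called 22 of the 33 genes, beside 10645 of the 16269 genes tested. The difference between replicates 2 and 3 in DMSO was, however, almost unrelated to that with MAPK13-IN-1 (correlation 0.005 across the genes tested, which are not independent replicates). Calls were lost in some setting for *Acacb* (58 to 129 counts per library), *Elovl7* (106 to 253), *Decr1* (428 to 493), *Cpt1a* (1380 to 2409) and *Acaca* (1656 to 2676), so both low and high counts were among them, and the part of depth was not tested.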
